A study of Mus musculus with 12 samples.

Results

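Polyamine synthesis and breakdown was followed through 9 listed genes downstream of ornithine, out of 27179 genes in the count table. The genes were Odc1, Amd1, Srm, Sms, Oaz1, Azin1, Sat1, Smox and Paox, found by matching their Entrez identifiers to mouse symbols. All 9 were in the table, and 9 passed the filter on low counts. Bulk RNA-seq covered livers of male mice, young adults when the diets began, in 4 groups of 3 with 1 library per mouse. Mice ate chow (CD) or a low-protein diet (LPD), and their livers carried either an empty vector (Vec, titled WT in the labels) or a pair of oncogenes (c-MET/β-catenin). The oncogenes were human c-MET and ΔN90-β-catenin, an active form that lacks its N-terminus. They were delivered by SB-HTVI, a hydrodynamic tail vein injection of plasmids together with Sleeping Beauty transposase, which reaches part of the hepatocytes only. Each diet was started before the injection and kept afterwards, and all 4 groups were collected together, at the time set by the end point of the CD oncogene mice. The oncogenes induce liver tumors, and the paper reports a lower tumor burden on LPD than on CD at that time. The human transgenes were not measured, since reads were aligned to the mouse genome.

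Polyamines are small, positively charged molecules that bind nucleic acids and that dividing cells need in quantity. Ornithine decarboxylase (Odc1) makes putrescine from ornithine, and spermidine synthase (Srm) and spermine synthase (Sms) extend it with aminopropyl groups supplied through S-adenosylmethionine decarboxylase (Amd1). Antizyme (Oaz1) sends Odc1 protein to the proteasome, and the antizyme inhibitor (Azin1) captures antizyme and releases Odc1. Breakdown runs through the acetyltransferase Sat1 and the oxidase Paox, or directly from spermine to spermidine through spermine oxidase (Smox), with hydrogen peroxide as a by-product. Much of this control acts on translation and protein stability, which RNA counts do not show.

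The libraries held 19476209 to 31990267 counts over genes. Hepatocyte markers had counts in all 12 libraries, with a summed level of 85220 to 152100 CPM, which are counts scaled to library size with TMM factors. On CD, 3 of 8 macrophage, 5 of 8 stellate cell (2 fell), 2 of 5 cholangiocyte, 2 of 3 tested neutrophil and 3 of 4 erythroid markers rose in c-MET/β-catenin livers, as did 10 of 10 proliferation genes. Of 8 hepatocyte markers 2 rose and 1 fell, of 6 T and NK cell markers 1 rose and 1 fell, 1 of 6 endothelial markers fell, and 0 of 4 B cell markers were called. Summed levels in CD Vec and CD c-MET/β-catenin were 114 to 221 and 299 to 339 CPM for macrophages, 228 to 307 and 265 to 707 for stellate cells, 36.8 to 46.3 and 121 to 382 for cholangiocytes, 3.30 to 5.21 and 8.61 to 17.96 for neutrophils, 168 to 221 and 74.3 to 263.9 for erythroid cells, and 8.53 to 23.6 and 159.9 to 230.1 for proliferation. On LPD the proliferation genes summed to 11.6 to 14.1 CPM with Vec and to 26.3 to 65.7 CPM with the oncogenes. No marker was at 0 in all libraries, and the part of other cell types in the results below was not tested. In bulk tissue, fewer cells of a type and less RNA per cell cannot be told apart. The header of the count table carries dataset numbers, whose meaning is not stated. They were split here into 3 runs, with a new run at each gap above 5. CD c-MET/β-catenin libraries 1 and 2 form the first, and CD Vec 1 and 2 with LPD Vec 1 form the last. The other 7 libraries lie between them. Run is therefore only partly separable from injection. In oncogene livers it is only partly separable from diet, since every LPD c-MET/β-catenin library lies in the middle run. CD Vec 2 lay apart from the other libraries on the second principal component, and CD c-MET/β-catenin 1 was the highest library for Smox, Sat1 and Odc1, so results that rest on either are given with and without it.

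On CD, 6 of the 9 genes differed between oncogene and Vec livers. Smox rose 8.29-fold and Sat1 2.86-fold, while Srm, Paox, Azin1 and Oaz1 fell to 0.421, 0.489, 0.520 and 0.787 of their Vec level. Odc1, Amd1 and Sms did not pass the test. Of all genes tested, 35.4% were called in this comparison by edgeR's quasi-likelihood test at an adjusted p under 0.05, 18.7% higher and 16.7% lower, and the median log2 fold change was -0.33 over the 9 genes against -0.01 over all genes. Scaling by total counts alone moved that median over all genes to 0.28 and the share of called genes that were higher from 52.8% to 78.8%. The 6 called genes were also those whose libraries did not overlap between the groups, 2 higher and 4 lower, against 22.2% and 20.4% of all genes.

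**Figure D1:**
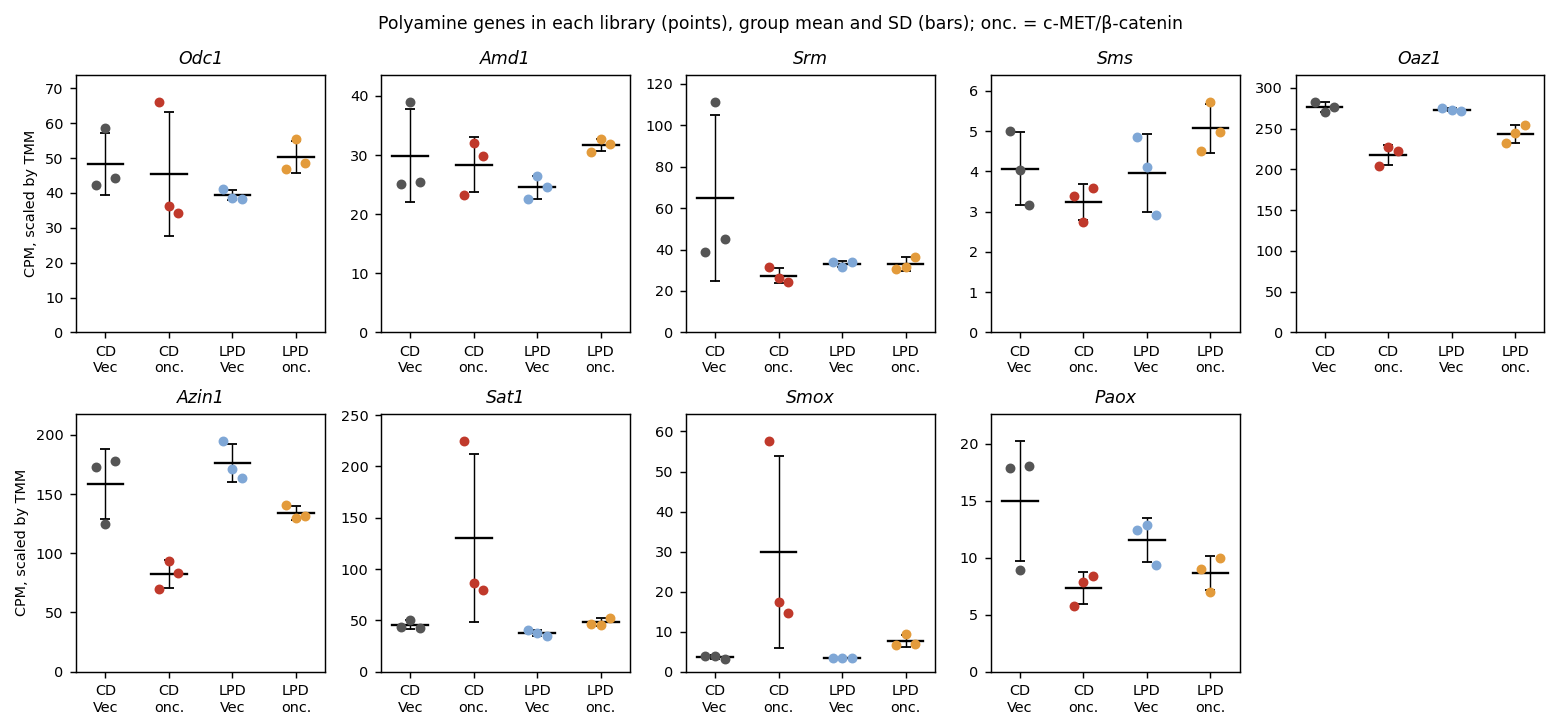
CPM of the 9 polyamine genes (y axis, from 0) in the 4 groups (x axis), with 1 point per library in replicate order and bars for the group mean and SD (n = 3). Smox and Sat1 stood highest in CD c-MET/β-catenin livers, and Azin1 stood lowest there.

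Among the breakdown genes, Smox (Entrez 228608, GRCm38 chr2:131491858-131525183) was at 3.92, 3.81 and 3.07 CPM in CD Vec and at 57.5, 17.4 and 14.6 CPM in CD c-MET/β-catenin libraries 1, 2 and 3. On LPD it was at 3.41, 3.42 and 3.49 CPM in Vec and at 6.74, 9.44 and 6.82 CPM in c-MET/β-catenin livers. The oncogene livers lay above their Vec controls on both diets, and those on LPD lay below those on CD without overlap. The log2 fold change on CD was 3.05 ± 0.46 (SE, n = 3 per group, edgeR adjusted p = 0.000442), with an interval on the fold from 4.16 to 16.5. Without CD c-MET/β-catenin 1 it was 2.15, and the call held in 12 of 12 fits that each left out a library.

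Sat1 (Entrez 20229, chrX:155213126-155216449), the rate-limiting enzyme of polyamine acetylation, was at 43.3, 50.8 and 42.9 CPM in CD Vec and at 224, 86.6 and 79.9 CPM in CD c-MET/β-catenin. On LPD the values were 40.5, 37.9 and 35.1 CPM in Vec and 46.4, 45.9 and 52.6 CPM in c-MET/β-catenin. The 3 CD oncogene livers were the highest of the 12, and library 1 was far above the other two. The log2 fold change on CD was 1.51 ± 0.32 (SE, edgeR adjusted p = 0.0033), and without library 1 it was 0.87, still called.

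Paox (Entrez 212503, chr7:140115735-140134334), the peroxisomal oxidase of acetylated polyamines, moved the other way. Its levels were 17.9, 8.93 and 18.1 CPM in CD Vec, 5.78, 7.83 and 8.39 CPM in CD c-MET/β-catenin, 12.4, 12.9 and 9.39 CPM in LPD Vec and 8.99, 6.98 and 9.97 CPM in LPD c-MET/β-catenin. CD Vec 2 was close to the oncogene livers, and the other CD Vec libraries were the highest of the 12. The log2 fold change on CD was -1.03 ± 0.27 (SE, edgeR adjusted p = 0.0107), and with only the groups compared in the fit it was no longer called (adjusted p = 0.0503). Its exons overlap those of Echs1 on the opposite strand, and the strand setting of the counting is not stated, so reads of the pair cannot be told apart.

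The windows before the starts of Smox, Sat1 and Oaz1 are shown because Smox and Sat1 rose together and Oaz1 fell, and because each of these windows lies outside its own gene. RefSeq windows of 250 bases before the start were matched for 7 of the 9 genes, and the Smox window is shown to the base where the annotated gene begins (246 bases). Capitals mark matches, on either strand, of GGGCGG (GC box), TGACNNNGC (antioxidant response element core) and CCAAT, all 5′ to 3′ on the gene's strand.
Smox (GRCm38.p6, chr2:131491612-131491857, plus strand): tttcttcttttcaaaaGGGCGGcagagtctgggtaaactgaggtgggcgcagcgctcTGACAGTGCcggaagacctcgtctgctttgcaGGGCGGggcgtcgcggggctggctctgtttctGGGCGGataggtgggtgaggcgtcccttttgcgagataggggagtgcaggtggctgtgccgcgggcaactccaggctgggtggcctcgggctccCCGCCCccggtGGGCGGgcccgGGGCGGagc
Sat1 (GRCm38.p6, chrX:155216450-155216699, minus strand): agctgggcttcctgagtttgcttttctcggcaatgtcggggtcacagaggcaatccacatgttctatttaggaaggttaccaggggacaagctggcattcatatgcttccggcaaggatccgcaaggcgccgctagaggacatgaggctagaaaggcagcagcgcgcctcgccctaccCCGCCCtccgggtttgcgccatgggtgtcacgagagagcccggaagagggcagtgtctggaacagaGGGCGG
Oaz1 (GRCm38.p6, chr10:80826406-80826655, plus strand): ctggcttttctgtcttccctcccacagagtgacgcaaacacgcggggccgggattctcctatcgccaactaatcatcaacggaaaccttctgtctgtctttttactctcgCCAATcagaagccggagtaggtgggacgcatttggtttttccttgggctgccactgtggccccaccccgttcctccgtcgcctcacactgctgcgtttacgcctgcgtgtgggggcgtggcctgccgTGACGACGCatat
The Smox window held 6 matches of GGGCGG and 1 of TGACNNNGC, which begins 189 bases before the end of the printed window. Sat1 held 2 of GGGCGG, and Oaz1 held 1 of TGACNNNGC, 13 bases before its end, and 1 of CCAAT. Over 32851 mouse windows of 250 bases, 32.7% held GGGCGG, 10.2% TGACNNNGC and 33.8% CCAAT. The E-box CACGTG (6.02% of windows) had no match in these 3 windows. Neither did the TCF/LEF letters CTTTGAT, which 3.21% of windows held, or the cyclic AMP response element TGACGTCA, held by 1.55%. The C/EBP-ATF element TGATGCAA was in 0.791% of all windows and in none of these, and TATAAA, in 12.4%, was likewise absent from them. GC content was 67.9% for Smox, 59.6% for Sat1 and 58% for Oaz1, against a median of 52.4%. A match describes the letters of the window and is not a bound site.

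Of the synthesis genes, Odc1 (Entrez 18263, chr12:17544808-17551502) did not pass the test. Its levels were 42.3, 58.6 and 44.3 CPM in CD Vec, 66.1, 36.3 and 34.1 CPM in CD c-MET/β-catenin, 41.0, 38.6 and 38.4 CPM in LPD Vec and 46.8, 55.4 and 48.7 CPM in LPD c-MET/β-catenin. The CD groups overlapped, and the log2 fold change of -0.09 had a 95% interval from -0.57 to 0.39. The value depended on CD c-MET/β-catenin 1, without which it was -0.46 with an edgeR adjusted p of 0.0344. Amd1 (Entrez 11702, chr10:40287458-40302188) was at 25.2, 38.95 and 25.5 CPM in CD Vec and at 23.3, 32.1 and 29.8 CPM in CD c-MET/β-catenin, with a log2 fold change of -0.07 (95% interval -0.46 to 0.31).

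Srm (Entrez 20810, chr4:148591513-148594619), which makes spermidine, was at 38.7, 111 and 44.9 CPM in CD Vec and at 31.4, 26.3 and 24.2 CPM in CD c-MET/β-catenin. Its libraries were at 33.9, 31.3 and 34.1 CPM in LPD Vec and at 30.8, 31.5 and 36.7 CPM in LPD c-MET/β-catenin. CD Vec 2 was the single high library. The log2 fold change on CD was -1.25 ± 0.32 (SE, edgeR adjusted p = 0.00946), and -0.62 without CD Vec 2, still called (adjusted p = 0.00499). With only the groups compared in the fit it was -1.25 and not called (adjusted p = 0.0513). Sms (Entrez 20603, chrX:157443851-157492287), which makes spermine, was low throughout, at 3.18 to 4.99 CPM in CD Vec and 2.73 to 3.59 CPM in the CD oncogene livers, and did not pass the test (log2 fold change -0.33, 95% interval -0.86 to 0.20). A pseudogene, Sms-ps, had 15 to 53 counts per library beside 57 to 163 for Sms, so the counts of Sms are uncertain.

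Both regulators of Odc1 protein fell on CD. Azin1 (Entrez 54375, chr15:38487430-38519294), the antizyme inhibitor, was at 173, 125 and 178 CPM in CD Vec and at 70.2, 93.3 and 83.6 CPM in CD c-MET/β-catenin, and on LPD at 195, 171 and 164 CPM in Vec and 140.4, 129.8 and 131 CPM in c-MET/β-catenin. The CD oncogene livers were the 3 lowest of the 12 (log2 fold change -0.94 ± 0.16, SE, edgeR adjusted p = 0.00072). Exons of Azin1 overlap those of the antisense gene Gm49077 on the opposite strand, so reads of this pair cannot be told apart either. Oaz1 (Entrez 18245, chr10:80826656-80829290), antizyme itself, was at 282, 271 and 277 CPM in CD Vec and at 204, 227 and 222 CPM in CD c-MET/β-catenin. That drop of 0.35 on the log2 scale (SE 0.10, adjusted p = 0.0217) was no longer called without CD Vec 1 or without CD Vec 3 (adjusted p up to 0.058), nor without the filter on low counts (0.0535), with only the groups compared (0.118) or with scaling by total counts alone, where it was -0.06.

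**Figure D2:**
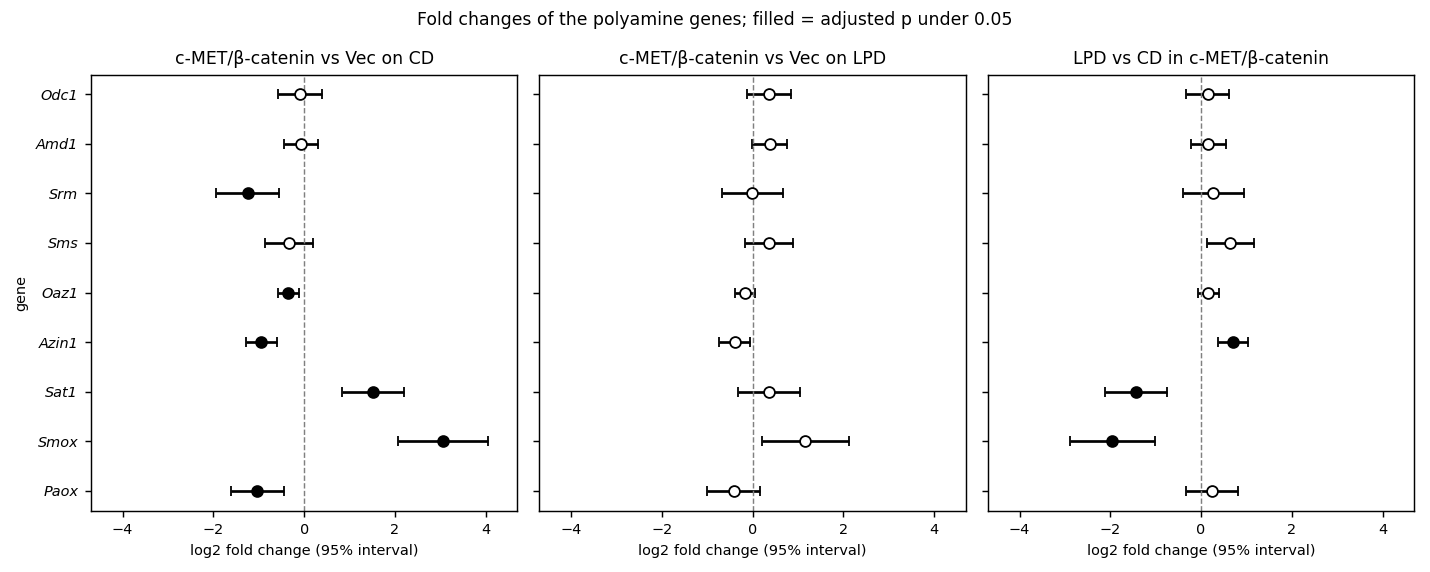
Log2 fold change (x axis) with 95% interval of each gene (y axis) for oncogene against Vec livers on CD, the same on LPD, and LPD against CD in c-MET/β-catenin livers, with filled points called at an adjusted p under 0.05. On CD 6 points are filled, on LPD 0, and for diet in oncogene livers 3.

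Within the run that holds libraries of all 4 groups, CD has 1 library per injection. There the difference in log2 CPM was 2.21 for Smox against 2.74 over all libraries, 0.90 against 1.35 for Sat1 and -1.09 against -0.93 for Azin1. It was -0.89 against -1.09 for Srm, -1.10 against -0.97 for Paox and -0.32 against -0.35 for Oaz1. All 6 kept their direction, which any pair of 1 library per group must do where the groups do not overlap. The direction is therefore no test of the runs. In a fit with a term for the runs, 0 of the 9 genes were called on CD, against 6.78% of all genes. Smox was at 2.12 (edgeR adjusted p = 0.0553), Azin1 at -0.93 (0.0694) and Sat1 at 0.90 (0.248).

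On LPD, 0 of the 9 genes were called between oncogene and Vec livers, where 1.32% of all genes were. At an unadjusted p under 0.05 there were 2, Smox and Azin1, against 11.1% of all genes. The log2 fold change was 1.16 ± 0.44 for Smox (SE, edgeR adjusted p = 0.318) and, for Azin1, -0.40 ± 0.15 (adjusted p = 0.326). Smox was called with only the 2 LPD groups in the fit (1.16, adjusted p = 0.0133) and without CD c-MET/β-catenin 1 (adjusted p = 0.0116), a library of neither group. Without both that library and CD Vec 2, 4 of the 9 genes were called, against 443 of all 14073 genes. Smox, Amd1 and Odc1 were higher and Azin1 was lower. Libraries did not overlap for 4 genes that were higher and 2 that were lower, against 13.5% and 11.6% of all genes. The median over the 9 genes was 0.35, against 0.01 over all genes.

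The diet contrast in Vec livers called 0 of the 9 genes, where 0.308% of all genes were called. Srm alone had an unadjusted p under 0.05 (9.87% of all genes did), with a log2 fold change of -0.97 ± 0.31 (SE, edgeR adjusted p = 0.257). That value was -0.34 without CD Vec 2. For Smox the log2 fold change was -0.07 with a 95% interval from -1.06 to 0.93, and for Oaz1 it was -0.02 with an interval from -0.24 to 0.21.

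In c-MET/β-catenin livers, 3 of the 9 genes differed between LPD and CD, where 20% of all genes were called, 8.66% higher and 11.3% lower. Azin1 was 1.62-fold higher on LPD, and Smox and Sat1 were at 0.257 and 0.371 of their CD level. Their log2 fold changes were 0.70 ± 0.15 (edgeR adjusted p = 0.00881), -1.96 ± 0.43 (adjusted p = 0.00863) and -1.43 ± 0.32 (SE, adjusted p = 0.0091). Libraries did not overlap for 3 genes higher and 2 lower on LPD, against 19.2% and 20.1% of all genes. Leaving out each library in turn kept these 3 calls in 12 of 12 fits. Without CD c-MET/β-catenin 1, Smox was at -1.05 and Sat1 at -0.78, and Odc1 was also called, at 0.52 (adjusted p = 0.0351). Sms was higher by 0.65 on the log2 scale (adjusted p = 0.0815), and its libraries did not overlap, at 4.496, 5.72 and 4.99 CPM on LPD against 3.38, 2.73 and 3.59 CPM on CD. In the run with all groups, with 1 CD library against 3 on LPD, the differences in log2 CPM were -0.94 for Smox, -0.73 for Sat1 and 0.68 for Azin1. A fit with a term for the runs called 0 of the 9, against 4.43% of all genes. Markers of other cells and of proliferation moved in the same comparison: 10 of 10 proliferation genes, 2 of 5 cholangiocyte, 3 of 4 erythroid, 2 of 3 tested neutrophil, 2 of 8 macrophage and 3 of 8 hepatocyte markers were lower on LPD, 5 of 8 stellate cell markers were lower and 2 higher, and 1 of 6 endothelial, 1 of 4 B cell and 0 of 6 T and NK cell markers were higher. In LPD oncogene livers the summed levels were 238 to 323 CPM for stellate cells, 40.8 to 52.7 for cholangiocytes, 212 to 377 for macrophages, 2.98 to 6.08 for neutrophils and 85220 to 120900 for hepatocytes. Tumor burden also differed between the diets by the paper's account. The part of these cells and of tumor tissue in the diet differences was not tested.

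The interaction, which is the effect of the oncogenes under LPD less their effect under CD on the log2 scale, was called for 0 of the 9 genes, where 8.91% of all genes were called. Its unadjusted p was under 0.05 for 4 genes, against 25.8% of all genes. These were Smox at -1.89 ± 0.62 (edgeR adjusted p = 0.0783), Srm at 1.24 ± 0.44 (0.1), Sat1 at -1.16 ± 0.44 (0.121) and Azin1 at 0.55 ± 0.22 (SE, 0.138). DESeq2 called Smox and Srm, with adjusted p-values of 0.0182 and 0.049, and called 2083 of all 13947 genes. Without both CD Vec 2 and CD c-MET/β-catenin 1, edgeR called 5 of the 9, against 1427 of all 14073 genes. These libraries were picked with the levels of these genes known. The fit added Sat1, Azin1 and Odc1, with Smox at -1.03, Srm at 0.72 and Sat1 at -0.60. Without CD c-MET/β-catenin 1 alone, Smox was at -0.99 and Sat1 at -0.51, and without CD Vec 2 alone Srm was at 0.61, none of them called. Single libraries also decided calls: Odc1 was called without CD c-MET/β-catenin 1 (0.81, edgeR adjusted p = 0.0321), Srm without CD Vec 1 (1.496, 0.0405), Azin1 without CD Vec 2 (0.70, 0.0381), and Sat1 and Smox without CD c-MET/β-catenin 3 (-1.41, 0.0449, and -2.22, 0.0268). A difference between the diets in the effect of the oncogenes on these genes was thus called or not according to those libraries and the tool.

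Levels of different genes were compared per exon length, as reads per kilobase of exon union and CPM (RPKM). In CD Vec livers Oaz1 led at 108 ± 2.27 RPKM (SD, n = 3), followed by Srm at 40.6, Azin1 at 25.3, Sat1 at 16.5, Odc1 at 14.2, Amd1 at 8.44, Paox at 3.05, Smox at 0.925 and Sms at 0.677. The libraries of Srm and Azin1, of Sat1 and Odc1, and of Smox and Sms overlapped, and the other neighbours did not. Without CD Vec 2 the mean of Srm was 26.1 RPKM, below Azin1 at 28.02. In CD c-MET/β-catenin livers Sat1 stood second at 47.0 RPKM, overlapping with Oaz1 through library 1, and Smox, at 7.66 RPKM, overlapped with Amd1 at 8.01. Without library 1 Sat1 was at 30.0 RPKM, still second, and Smox at 4.10, and neither overlap remained. In LPD c-MET/β-catenin livers Azin1 stood second at 21.4 RPKM, overlapping with Srm, and Smox, at 1.97 RPKM, overlapped with Paox at 1.76.

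**Figure D3:**
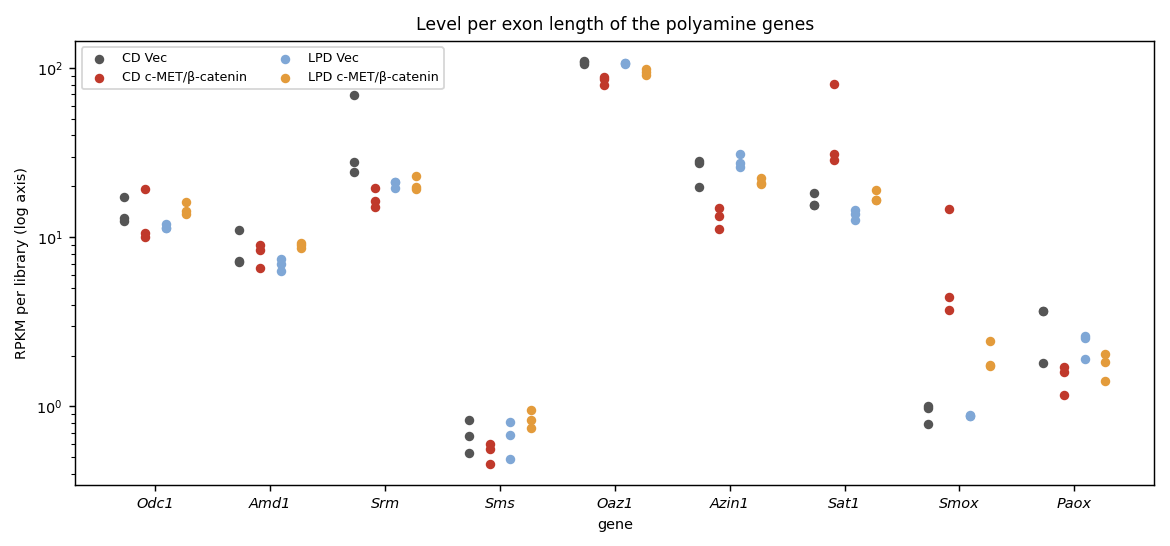
RPKM of each gene (x axis) in each library on a log y axis, coloured by group. Oaz1 was the highest gene in every group mean, and Smox lay below Paox in both Vec groups and above it in both oncogene groups by group mean. On LPD the latter rested on library 2. Smox per Paox was 0.945, 1.7 and 0.862 in LPD c-MET/β-catenin libraries 1, 2 and 3.

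Ratios within a library do not depend on its scaling. Sat1 per Odc1 was 1.17 ± 0.10 in CD Vec, 3.32 ± 0.73 in CD c-MET/β-catenin, 1.18 ± 0.05 in LPD Vec and 1.19 ± 0.16 in LPD c-MET/β-catenin (SD, n = 3). Smox per Odc1 was 0.0662, 0.518, 0.0765 and 0.132 in the same order. Azin1 per Oaz1 was 0.234, 0.154, 0.264 and 0.225. The CD oncogene livers, at 2.87 to 4.17 for Sat1 per Odc1, stood apart from the other 9 libraries, which lay between 1.02 and 1.33. No test was run on these ratios, which were chosen with the values known.

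**Figure D4:**
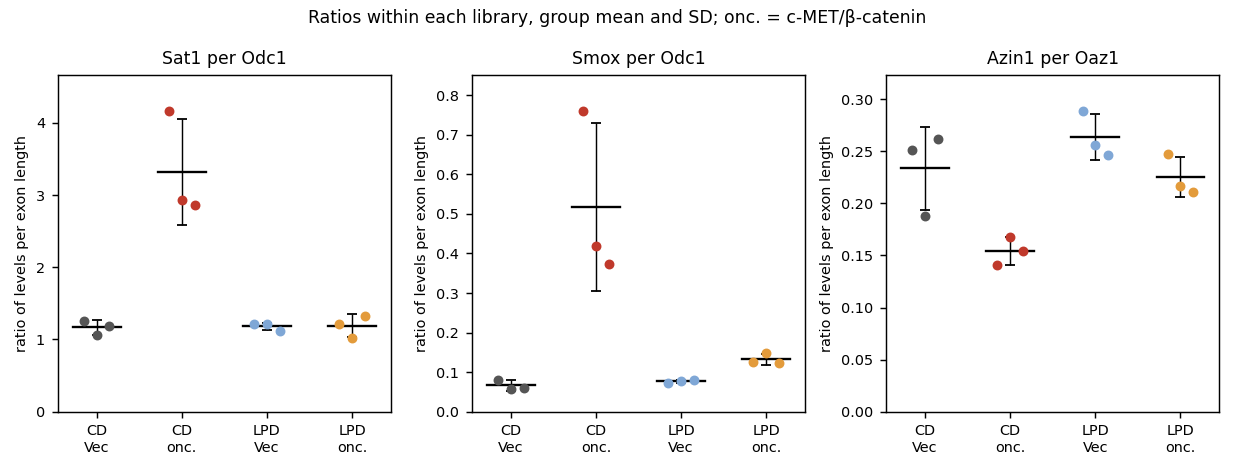
Ratios of levels per exon length within each library (points) for Sat1 per Odc1, Smox per Odc1 and Azin1 per Oaz1 in the 4 groups (x axis), with group mean and SD (bars, n = 3). CD c-MET/β-catenin livers were highest for the first pair of ratios, with means of 3.32 and 0.518, and lowest for Azin1 per Oaz1, at 0.154.

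The other pathway lists held 37 tested genes, of which 16 (43.2%) were called on CD, 1 (2.7%) on LPD, 8 (21.6%) for diet in oncogene livers and 5 (13.5%) for the interaction, against 35.4%, 1.32%, 20% and 8.91% of all genes. With a term for the runs 4 of the 16 were still called on CD (Oat, Otc, Aldh18a1 and Mat2a), 0 on LPD, 1 for diet (Oat) and 0 for the interaction, where 6.78%, 0.538%, 4.43% and 0.609% of all genes were. In the lists below, counts on CD stand against 18.7% of all genes higher and 16.7% lower.

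Among genes that supply or use ornithine and arginine, 4 of 8 tested rose and 2 fell on CD. Nos2, which makes nitric oxide from arginine, rose by 3.56 ± 0.89 on the log2 scale (SE, edgeR adjusted p = 0.00877) but stayed under 1 CPM in every library. Aldh18a1, the first enzyme from glutamate toward proline and ornithine, rose by 2.81 ± 0.46 (adjusted p = 0.000772), and the arginine transporter Slc7a1 by 2.72 ± 0.59 (0.00408). Oat, which links ornithine and glutamate, rose by 1.69 ± 0.31 (0.00148). The urea cycle enzyme Otc (-2.68) and the ornithine carrier Slc25a15 (-1.10) fell. With the run term Slc7a1 was at 1.18 (adjusted p = 0.438), Nos2 at 3.12 (0.285) and Slc25a15 at -0.76 (0.132), none of them called. On LPD only Oat of this list was called (1.43 ± 0.31, adjusted p = 0.0456), and that call held in 4 of 12 fits that left out a library and was lost with the run term (1.38, 0.0857) and without both CD Vec 2 and CD c-MET/β-catenin 1 (1.43, 0.0552).

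Oat was at 461 to 820.0 CPM in CD Vec, 1438 to 2831 in CD c-MET/β-catenin, 145 to 230.2 in LPD Vec and 407 to 649.5 in LPD c-MET/β-catenin. In oncogene livers the log2 difference of Oat between LPD and CD was -1.93 (edgeR adjusted p = 0.00193), and the libraries on the diets did not overlap. In Vec livers it was -1.68 ± 0.31 (SE, edgeR adjusted p = 0.0504), and the interaction for Oat was -0.26 (0.748). In oncogene livers LPD was higher than CD for Otc by 1.47 (edgeR adjusted p = 0.0094) and lower for Nos2 (-3.20, 0.0162). Otc was at 473 to 554 CPM in CD Vec and 43.3 to 126.0 in CD c-MET/β-catenin. It was at 215 to 315 CPM in LPD Vec and 165 to 278 in LPD c-MET/β-catenin. In Vec livers its log2 difference between LPD and CD was -1.01 ± 0.32 (SE, edgeR adjusted p = 0.251). The Nos2 call held in 9 of 12 fits. With the run term Otc was at 0.82 (adjusted p = 0.238) and Nos2 at -2.91 (0.18), and both calls were lost.

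Of 8 genes for S-adenosylmethionine supply and methylthioadenosine salvage, 2 rose and 3 fell on CD. Mat2a, the S-adenosylmethionine synthetase of growing cells, rose from 77.1 ± 17.6 to 195.5 ± 34.5 CPM (SD, n = 3; log2 fold change 1.34, edgeR adjusted p = 0.000253), and Mat1a, its liver counterpart, fell from 3679 ± 120.0 to 1676 ± 301 CPM (-1.13, 0.000699). The salvage genes Apip (-1.04) and Adi1 (-0.85) fell, and Enoph1 rose by 0.59, a call held in 8 of 12 fits and lost without the filter on low counts (adjusted p = 0.0514) and with only the groups compared (0.131). In oncogene livers LPD was lower than CD for Mat2a (-0.79, adjusted p = 0.0112) and higher for Adi1 (0.65, 0.00289) and Apip (0.56, 0.0408), the last held in 3 of 12 fits. The diet call of Apip was also lost with scaling by total counts (adjusted p = 0.0683), with only the groups compared (0.115) and without both CD Vec 2 and CD c-MET/β-catenin 1 (0.0796). With the run term, Mat1a (-1.07, adjusted p = 0.0717), Apip (-0.70, 0.151), Adi1 (-0.69, 0.0557) and Enoph1 (0.80, 0.166) were not called on CD, nor were Mat2a (-0.87, 0.0999), Adi1 (0.60, 0.0775) and Apip (0.28, 0.598) for diet.

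Among polyamine transporters, 2 of 5 tested rose and 1 fell on CD. The organic cation transporter Slc22a3 rose by 1.03 (edgeR adjusted p = 0.0124), and the lysosomal polyamine exporter Atp13a2 rose by 0.64 (0.0154). Its relative Atp13a3 fell by 0.39 (0.0206). These calls held in 11, 10 and 9 of 12 fits. With only the groups compared, Atp13a2 (0.62, adjusted p = 0.0864) and Atp13a3 (-0.41, 0.1) were not called, nor was Slc22a3 without both CD Vec 2 and CD c-MET/β-catenin 1 (0.88, 0.0545). In oncogene livers LPD was lower than CD for Slc22a3 (-1.49, adjusted p = 0.00403) and higher for Atp13a3 (0.51, 0.00963). With the run term, Slc22a3 (0.69, adjusted p = 0.394), Atp13a2 (0.64, 0.23) and Atp13a3 (-0.41, 0.261) were not called on CD, nor were Slc22a3 (-1.31, 0.0816) and Atp13a3 (0.57, 0.115) for diet. On CD, Atp13a3 was at -0.104 with scaling by total counts, not called.

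Of 6 tested paralogues and other polyamine enzymes, Agmat, which yields putrescine from agmatine, fell on CD by 0.90 (edgeR adjusted p = 0.00104), and no other was called in any comparison. With the run term Agmat was at -0.75 and not called (adjusted p = 0.119). Of 4 genes for hypusination, the spermidine-dependent modification of the translation factor eIF5A, 0 were called in any comparison, with log2 medians between -0.16 and -0.02. Of 6 genes of the Myc family and partners, Mycn rose on CD by 1.65 (adjusted p = 0.0131), a call lost with the run term (1.53, 0.195) and without both CD Vec 2 and CD c-MET/β-catenin 1 (1.65, 0.0787), and Myc was at 1.05 ± 0.78 (SE, adjusted p = 0.326).

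**Figure D5:**
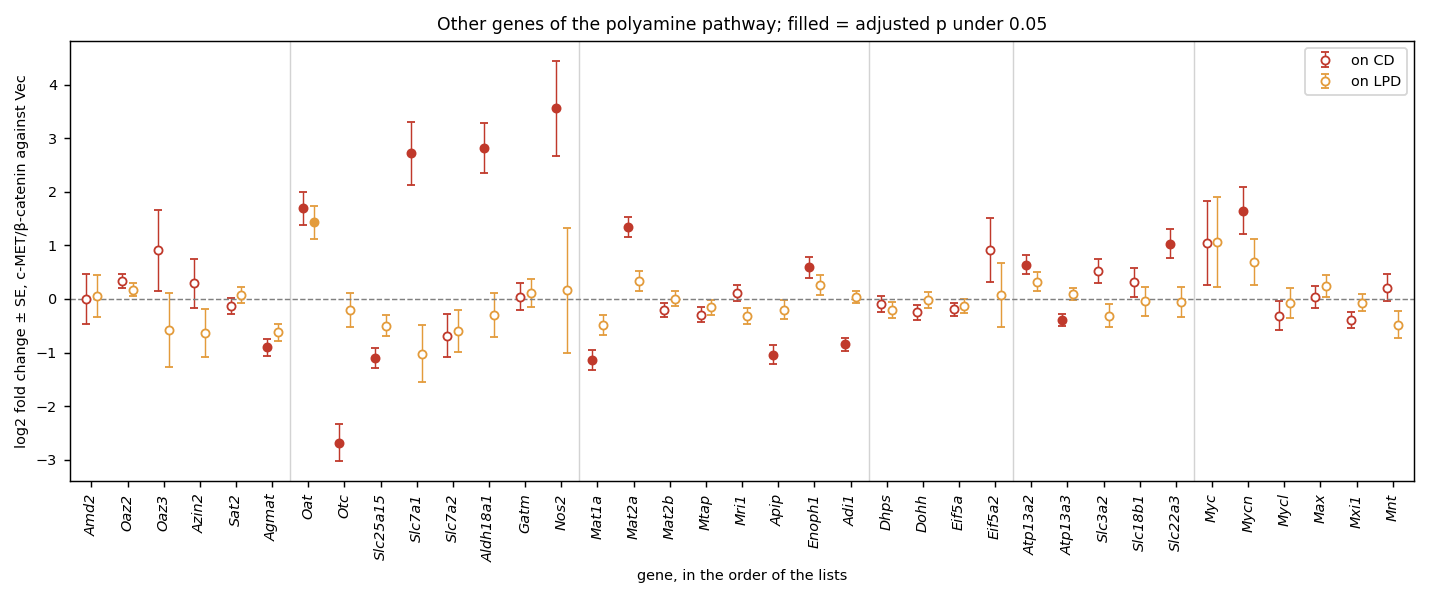
Log2 fold change ± SE of oncogene against Vec livers (y axis) on CD and on LPD for the other tested pathway genes (x axis), in blocks for paralogues, ornithine and arginine, S-adenosylmethionine and salvage, hypusination, transport and the Myc family. Filled points are called at an adjusted p under 0.05, and on LPD only Oat, at 1.43, is filled.

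The genes most like each called gene, by Pearson correlation of log2 CPM over the 12 libraries, are given as a description, since the libraries share 4 groups. Smox was nearest to Ptpn9 (r = 0.984), Tubb6 (0.971) and Chpf2 (0.970). Sat1 was nearest to Bsg (0.977), Eif6 (0.972) and Psmd8 (0.971), and Azin1 to Slc2a2 (0.974), Prpf8 (0.968) and Rmnd5a (0.966). Oaz1 was nearest to Aars2 (0.982), Tmbim6 (0.972) and Khdrbs3 (0.965), and Srm to Tmem256 (0.974), Txndc11 (0.972) and Zfp869 (0.955). Paox was nearest to Fbxl4 (0.942), Qdpr (0.929) and Selenoo (0.925).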

How the data were processed

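The values are integer read counts per gene, deposited by the authors without normalization. Per the authors' methods and the file header, reads were aligned to mm10 with HISAT2 and counted under Entrez identifiers with featureCounts. Tool versions, strand setting and treatment of reads with several matches are not given in the sources used here. The labels describe depletion of ribosomal RNA, whereas the methods describe selection of mRNA. Chow libraries carry HPD in their column names, and the titles, which say chow, were followed. A label field names hepatocytes, but the tissue was whole liver.

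All 12 columns were mapped. Symbols came from RefSeq GRCm38.p6 (25275 genes) and GENCODE M21 (18), which left 1886 of 27179 identifiers without one. Counts were tested in R 4.3.3 with edgeR 4.0.16 (TMM, filterByExpr, robust quasi-likelihood test, 1 coefficient per group, 12 libraries in 1 fit, no covariate). The filter kept 13947 genes. Benjamini-Hochberg adjustment ran over these genes, or in each alternative over the genes it tested, and genes under 0.05 were called. TMM factors ranged from 0.864 to 1.12, the common dispersion was 0.0537, and genes with few counts, such as Sms, are imprecise at these totals. RPKM used the exon union of GENCODE M21. Log2 CPM used a prior count of 2. Libraries of the same group differed by more than sampling noise, so 3 were counted per group. The fitting code was run on simulated counts with known fold changes. These held no run effect and few changed genes, so that run does not assess the calls above. Alternatives were other scaling, DESeq2 1.42.0, no filter, only the groups compared, a replicate block, a run term (dataset numbers of the header) and leaving out libraries.

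The 9 genes and all lists were chosen with earlier results of these data known. A few further genes of the lists, 1 of them a polyamine gene, are not reported here and enter none of the counts over a list. Genes named outside the 9 were, per list, comparison and direction, up to 3 called genes with the largest absolute log2 fold change, and the nearest genes of each called member; further genes named beside a count of 5 or fewer were added after their values were seen.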

Additional observations from a re-analysis of the deposited data

Results flagged for a closer look

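By edgeR's quasi-likelihood test 0 of the 9 polyamine genes had a called interaction (4 at an unadjusted p under 0.05), whereas DESeq2 called Smox and Srm, and groups of 3 were not tested for outlying samples. Of the other 37 pathway genes tested, 5 (13.5%, against 8.91% of all genes) had an effect of the oncogenes that differed between the diets, by the test of the difference itself (edgeR's quasi-likelihood test of the interaction, as LPD effect minus CD effect on the log2 scale). Otc was at 2.48 ± 0.46 (SE, adjusted p = 0.0107) and Adi1 at 0.89 ± 0.16 (0.0092). Slc7a1 was at -3.74 ± 0.80 (adjusted p = 0.0177), Aldh18a1 at -3.11 ± 0.62 (0.0139) and Mat2a at -1.003 ± 0.26 (0.0345). The Mat2a call held in 4 of 12 fits that each left out a library and was lost with a replicate block (-1.03, adjusted p = 0.0503), and the other 4 calls held in 12. With a run term in the fit 0 of these 5 were called, with Otc at 1.77 (adjusted p = 0.106), Adi1 at 0.79 (0.122), Slc7a1 at -2.39 (0.237), Aldh18a1 at -2.64 (0.0679) and Mat2a at -1.11 (0.18).

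Slc7a1, a transporter of arginine and ornithine, was at 0.284 to 1.38 CPM in CD Vec, 3.03 to 7.54 in CD c-MET/β-catenin, 2.21 to 9.18 in LPD Vec and 2.32 to 2.91 in LPD c-MET/β-catenin. Aldh18a1 was at 0.796 to 2.45, 10.98 to 12.7, 4.03 to 14.98 and 6.08 to 8.84 CPM in the same order. For both genes the CD Vec libraries were the lowest of the 12. For Otc, every LPD Vec library was below every CD Vec library, at 214.7 to 314.6 against 473.3 to 553.9 CPM.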

How the results depend on the processing

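Groups of 3 and low counts (Sms) limited precision. Runs of dataset numbers were only partly separable from injection and, in oncogene livers, from diet. The fit without both CD Vec 2 and CD c-MET/β-catenin 1 was added after the data were seen. On CD, the 6 called polyamine genes became 3 with only the groups compared and 0 with the run term, and 5 to 7 without single libraries. On LPD, 0 became 1 with only the groups compared, 4 without both libraries and 0 to 1 without single libraries. For diet in oncogene livers, 3 became 0 with the run term, 5 without both libraries and 3 to 4 without single ones. For the interaction, 0 became 2 with DESeq2, 5 without both libraries and 0 to 2 without single ones. Why these counts moved was not tested.

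Counts over all genes moved as follows. On CD, 4933 genes became 3014 with only the groups compared and 945 with the run term. On LPD, 184 became 497 with DESeq2, 505 with only the groups compared, 75 with the run term, 443 without both libraries and 52 to 254 without single ones. For diet in Vec, 43 became 66 with total counts, 339 with DESeq2, 3 with only the groups compared, 16 with the run term, 79 without both libraries and 5 to 104 without single ones. For diet in oncogene livers, 2784 became 618 with the run term, 3475 without both libraries and 1585 to 3660 without single ones. For the interaction, 1243 became 2083 with DESeq2, 85 with the run term, 1427 without both libraries and 391 to 1404 without single ones.

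Directions turned only for values not called. On CD, Odc1 was 0.20 with total counts and -0.459 to 0.078 without single libraries. Amd1 was 0.22 with total counts, 0.049 with the run term, 0.28 without both libraries and -0.18 to 0.15 without single ones, and Sms was 0.16 with the run term. On LPD, Srm was 0.10 with total counts, 0.12 with the run term and -0.088 to 0.041 without single libraries. In Vec livers, Sms was 0.056 with total counts, 0.12 with the run term and -0.21 to 0.14 without single libraries, Oaz1 was 0.084 and Smox 0.036 with total counts, and without single libraries they were -0.039 to 0.001 and -0.163 to 0.005. In oncogene livers, Odc1 was -0.021 to 0.516 without single libraries.

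With a replicate block, 6, 0, 0, 3 and 0 polyamine genes were called in the 5 comparisons in the order above (CD, LPD, diet in Vec, diet in oncogene livers, interaction), and 4520, 151, 16, 2380 and 812 of all genes. Same-numbered libraries deviated from their group means with correlations from -0.183 to 0.167, so the numbers were not taken as pairs.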
